A study of Mus musculus with 16 samples.

Results

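The proteasome is the barrel-shaped protease that degrades ubiquitin-tagged proteins, and its subunit genes were followed here in mouse haematopoietic stem cells (HSCs) after long treatment of the animals with palbociclib, rapamycin or both. The members were all protein-coding genes whose symbol begins with Psma, Psmb, Psmc, Psmd or Psme and a digit, which gave 45 genes of the 50686 measured, with 4 pseudogenes left out. By role they were 16 constitutive core subunits, 19 cap and activator genes, 5 immunoproteasome genes (Psmb8, Psmb9, Psmb10, Psme1 and Psme2) and 5 genes that carry such a symbol but have another role (Psmc3ip, Psmd5, Psmd9, Psmd10 and Psme2b). Of the 45, 44 had enough counts to be tested, and the other one was Psmb11, a core subunit of the thymic cortex.

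The 16 libraries were 4 each of vehicle, palbociclib, rapamycin and combination. C57BL/6J mice were injected intraperitoneally every 48 h for 85 days, with vehicle (20% DMSO and 40% PEG 400 in PBS), with palbociclib at 30.4 mg/kg, an inhibitor of the cell cycle kinases CDK4 and CDK6, with rapamycin at 6.4 mg/kg, an inhibitor of the growth kinase mTOR, or with both drugs at those doses. Vehicle libraries therefore also come from injected animals. From marrow depleted of lineage-positive cells, 10000 HSCs in G0/1 were sorted with antibodies to Sca-1, CD117, CD150 and CD48, so cells in other cycle phases were not sampled. The labels give neither the age of the mice nor the number of animals behind a library, and a p-value here speaks only of how far these libraries scatter, part of which can be technical. The genes of the sort were present throughout: Kit, which encodes CD117, ranged from 127 to 587 CPM (counts scaled to library size) over the 16 libraries, and Slamf1, which encodes CD150, from 14.1 to 60.4. Ly6a, which encodes Sca-1, ranged from 90.3 to 1006 CPM in vehicle, 157 to 477 in palbociclib, 139 to 204 in rapamycin and 500.0 to 793 in combination libraries.

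A proteasome has a core of stacked rings, in which alpha subunits form the gate and beta subunits line the chamber, and a cap that recognises, unfolds and feeds in the substrate. In cells exposed to interferon and in many blood cells, the catalytic beta subunits Psmb5, Psmb6 and Psmb7 are replaced by Psmb8, Psmb9 and Psmb10, and the Psme1 and Psme2 ring can take the place of a cap. The resulting immunoproteasome cuts proteins into peptides that suit presentation by MHC class I.

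Library totals ran from 10133860 to 15328830 counts. Vehicle 3 and rapamycin 3 had the fewest genes detected (16704 and 16570, against at least 18640 in the other libraries), and these libraries and vehicle 4 correlated least with the rest, with median r of 0.866, 0.871 and 0.880. Vehicle 3 was the highest vehicle library in 26 of the 44 tested members and the lowest in 10, so it weighs on most differences from vehicle given here. The palbociclib group was uneven too, with palbociclib 3 its highest library in 24 of the 44 members and palbociclib 1 its lowest in 25. The libraries are bulk RNA, in which fewer cells of one kind and less RNA per cell cannot be told apart.

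Together the members held between 0.909% and 1.46% of the summed TPM (transcript levels per gene length, scaled to the same total in all libraries) in each library. The highest mean TPM over the 16 libraries was that of Psme1, a subunit of the interferon-inducible activator ring, at 841, followed by the beta subunit Psmb6 at 727 and the alpha subunit Psma7 at 647. Of the other immunoproteasome genes, Psmb8 averaged 594 TPM, Psme2 423, Psmb9 250 and Psmb10 230. Their group median of 423 lay between those of the alpha ring (362, Psma8 left out) and the beta ring (472, Psmb11 left out). At the low end stood Psme4, an activator of the nucleus and of sperm (3.6 TPM), Psme2b (8.76), and Psma8, the alpha subunit of male germ cells (12.0), while Psmb11 was near 0.

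Subunits that a proteasome holds in equal number did not have equal mRNA levels. Psma8 and Psmb11, of germ cells and thymus, are left out of these ranges. In the alpha ring the mean TPM ran from 223 for Psma5 to 647 for Psma7, and in the beta ring from 105 for Psmb7 to 727 for Psmb6, a 6.93-fold range. Of the ATPases that form the base of the cap, Psmc6 had 41.1 TPM and Psmc3 314, a 7.65-fold range. The non-ATPase cap subunits lay between 79.4 TPM for Psmd1 and 284 for Psmd8.

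**Figure D1:**
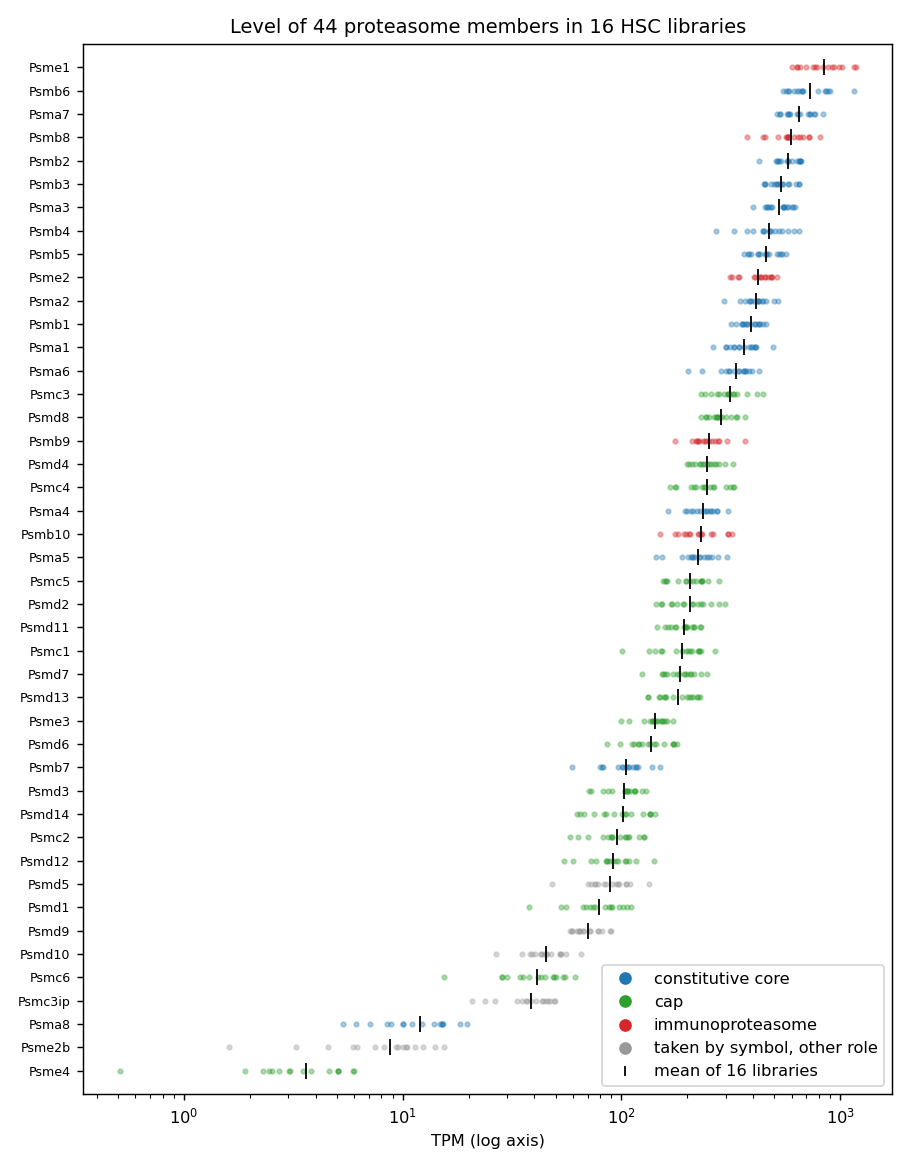
Level of each of the 44 tested members in TPM (log axis), with 1 point per library in the colour of its role and a black tick at the mean of 16 libraries. Psme1, Psmb6 and Psma7 lie at the top, most cap genes lie below most core genes, and Psma8, Psme2b and Psme4 lie far below the rest.

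The members varied little between replicates. Their median within-group SD of log2 CPM was 0.20, against 0.55 over all 15308 genes tested. Core subunits were the steadiest, with a median SD of 0.16, followed by the immunoproteasome with 0.19 and the cap with 0.25. The members are also abundant, and their spread was not compared with that of genes of equal level. Across the 16 libraries the 5 immunoproteasome genes followed each other, with a median Pearson r of 0.65 over their 10 pairs and the lowest pair at 0.32. The medians were 0.31 over the 105 pairs of core subunits and 0.36 over the 171 pairs of cap genes. Between immunoproteasome and core or cap genes the median was 0.19. On deviations from the group means, which leave out the differences between groups, the medians were 0.65 for the immunoproteasome, 0.29 for the core and 0.11 for the cap, and 0.05 between immunoproteasome and core or cap genes. All these pairs share the same libraries and their depth.

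**Figure D2:**
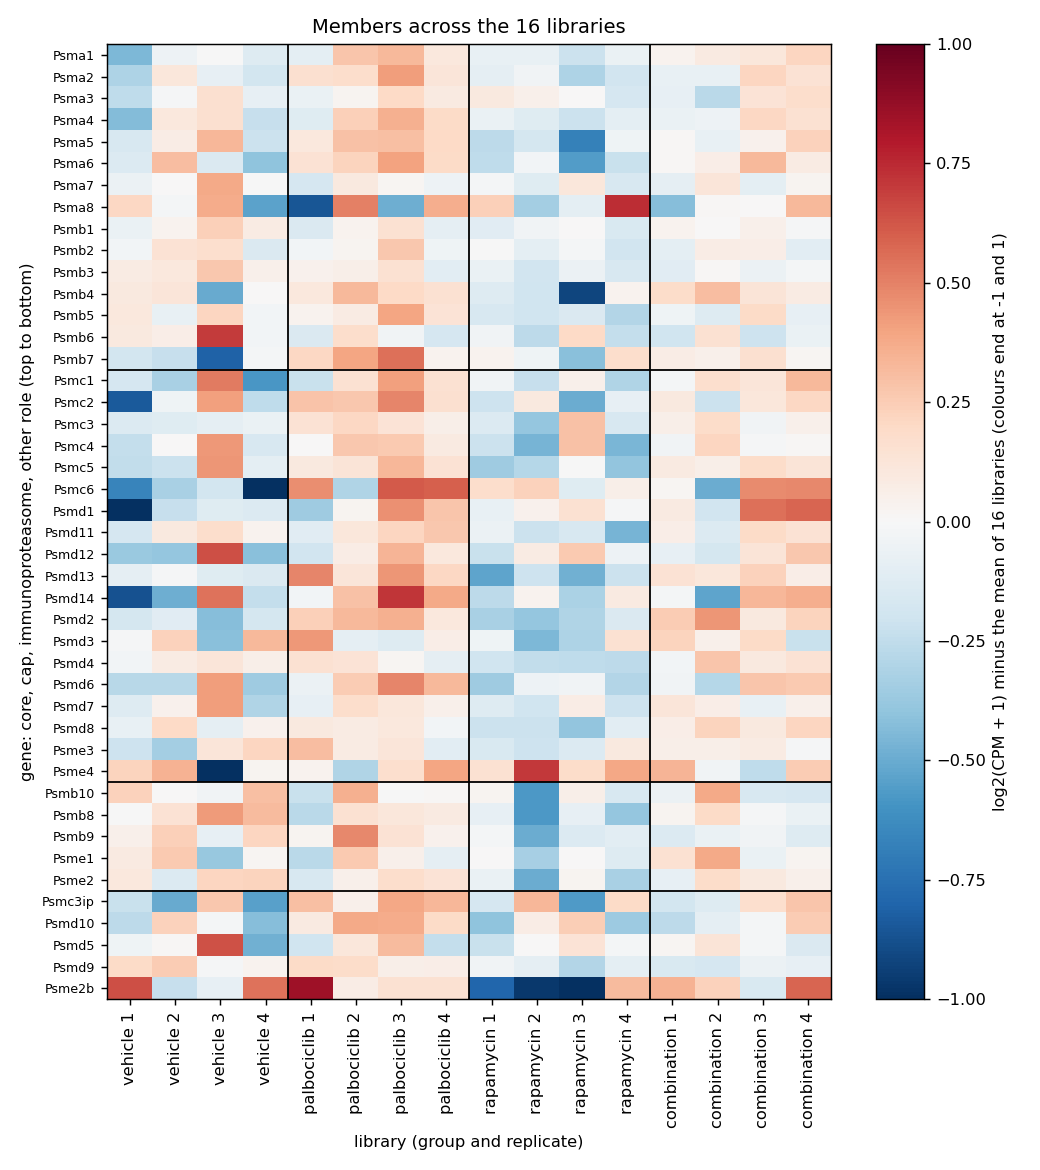
Members (rows, by role) across the 16 libraries (columns, by group), as log2(CPM + 1) minus the gene's mean over all libraries, with red above and blue below that mean and colours ending at -1 and 1. Vehicle 3 is above the mean in many rows, the cap rows are mostly redder in palbociclib and combination columns, and the immunoproteasome rows are bluest in rapamycin 2.

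Cap subunits Psmd2 and Psmd13 rose with palbociclib, and no other member passed the test. The comparison averaged the palbociclib effect over rapamycin: the mean of palbociclib against vehicle and of combination against rapamycin, so 8 libraries with palbociclib stood against 8 without. Psmd2 (Rpn1, a scaffold of the cap base that docks ubiquitin receptors) had 417, 436, 350 and 417 CPM in vehicle replicates 1 to 4 and 376, 360, 382 and 427 in rapamycin. With palbociclib it had 555, 592, 602 and 506, and with both drugs 561, 641, 505 and 551. Every library with palbociclib lay above every library without it. Its log2 fold change was 0.51 ± 0.09 (SE), a 1.43-fold higher level (edgeR adjusted p = 0.0268).

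Psmd13 (Rpn9, a subunit of the lid, the part of the cap that removes ubiquitin) had 142, 149, 139 and 136 CPM in vehicle and 105, 130, 108 and 130 in rapamycin libraries. It had 212, 164, 205 and 175 with palbociclib and 167, 163, 177 and 158 with both drugs. Again the 8 libraries with the drug lay above the other 8, the lowest at 158 and the highest without it at 149. The log2 fold change was 0.45 ± 0.09 (SE), or 1.37-fold (edgeR adjusted p = 0.0430). These were the 2 members called of 44, against 0.274% of all genes tested in either direction and 0.0915% higher, and the 2 whose 8 and 8 libraries did not overlap upward, against 0.163% of all genes. DESeq2 also called these 2, against 3.12% of all genes.

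Psmd2 lies on chromosome 16 at 20651652 to 20663414, and Psmd13 on chromosome 7 at 140881968 to 140898643 (GRCm38). Psmd13 overlaps Sirt3 on the opposite strand by 342 bases and contains a pseudogene, Gm15542, on its own strand, listed at 114.5 and 59.7 TPM, and the counting may not keep their reads apart. Both calls were close to the threshold. Psmd2 missed it, with adjusted p from 0.0506 to 0.0694, without vehicle 1, palbociclib 3 or 4, rapamycin 1 or 2 or any 1 of the 4 combination libraries, and passed without each of the other 7. Psmd13 missed it, with adjusted p from 0.0532 to 0.125, without any 1 of 13 libraries and passed only without vehicle 2, vehicle 3 or palbociclib 2.

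**Figure D3:**
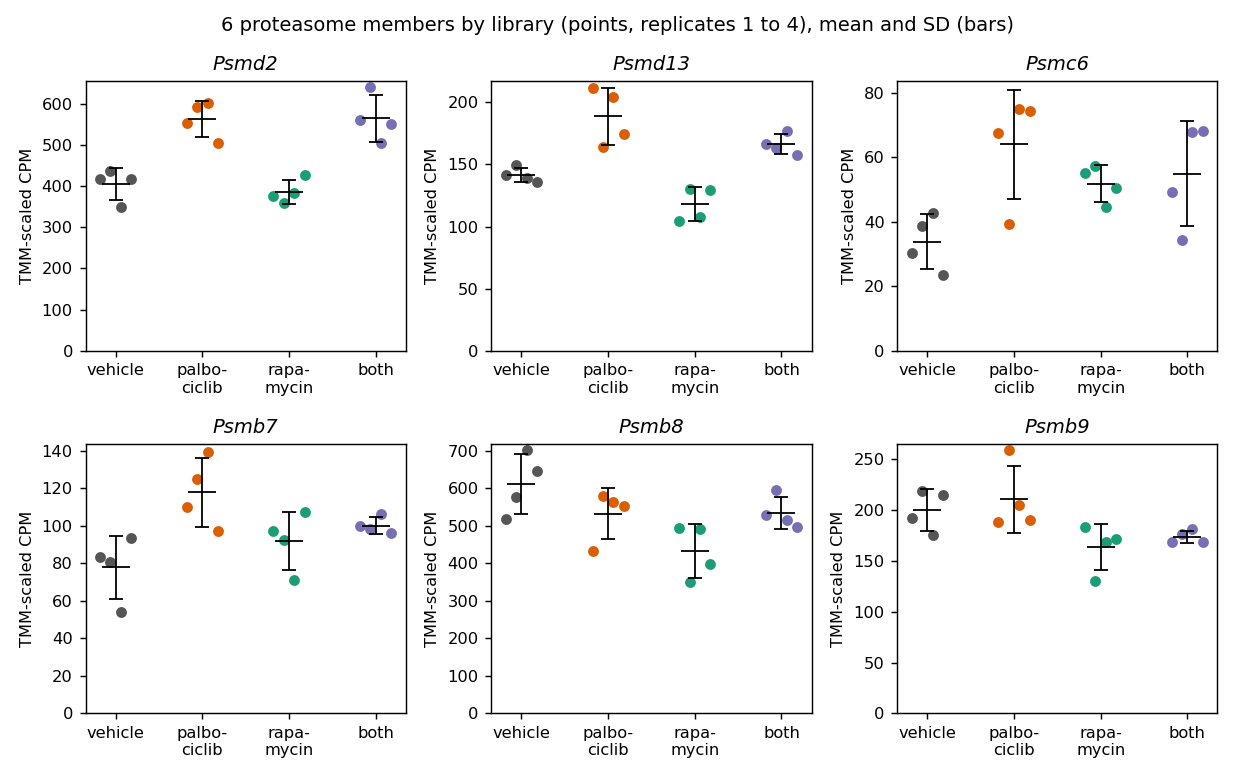
TMM-scaled CPM (linear axes from 0) of 6 members in the 4 groups, with 1 point per library, replicates 1 to 4 from left to right, and bars for the mean and SD. Psmd2 and Psmd13 are higher in every library with palbociclib than in every library without it, whereas the groups overlap in part for Psmc6, Psmb7, Psmb8 and Psmb9.

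The promoters of these 2 cap genes are shown because they are the members that edgeR called in the average palbociclib effect. That of Psmb9 is shown because it stands for the immunoproteasome genes, none of which passed. Each runs 5′ to 3′ on the gene's strand from 250 bases before to 50 after the RefSeq start (GRCm38.p6), which lies 426 bases inside the GENCODE gene for Psmd13, 434 inside it for Psmb9 and at its first base for Psmd2. Capitals mark the letters CCGGAAG of an ETS-type element, GGGCGG of a GC box, TTTNNCGC of an E2F-type element and CCAAT of a CCAAT box, on either strand.
Psmd2, chr16:20651402-20651701, plus strand: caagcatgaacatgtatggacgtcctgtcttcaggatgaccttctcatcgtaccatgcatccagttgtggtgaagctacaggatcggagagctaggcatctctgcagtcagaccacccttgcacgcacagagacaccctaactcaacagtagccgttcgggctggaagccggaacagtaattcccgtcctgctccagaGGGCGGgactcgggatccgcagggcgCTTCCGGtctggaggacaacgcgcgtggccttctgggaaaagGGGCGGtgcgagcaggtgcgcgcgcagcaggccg
Psmd13, chr7:140882144-140882443, plus strand: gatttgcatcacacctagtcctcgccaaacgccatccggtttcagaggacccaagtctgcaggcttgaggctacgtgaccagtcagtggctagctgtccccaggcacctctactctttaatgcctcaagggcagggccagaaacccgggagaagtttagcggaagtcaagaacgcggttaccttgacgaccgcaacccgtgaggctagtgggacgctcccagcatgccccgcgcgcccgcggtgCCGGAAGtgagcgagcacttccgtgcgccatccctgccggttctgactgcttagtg
Psmb9, chr17:34187281-34187580, minus strand: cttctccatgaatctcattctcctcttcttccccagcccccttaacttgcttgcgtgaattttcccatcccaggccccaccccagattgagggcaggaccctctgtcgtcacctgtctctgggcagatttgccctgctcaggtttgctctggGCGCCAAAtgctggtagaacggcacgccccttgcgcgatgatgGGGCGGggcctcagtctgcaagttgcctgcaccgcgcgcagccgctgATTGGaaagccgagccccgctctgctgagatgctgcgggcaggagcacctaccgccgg

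By these RefSeq starts, the ETS-type element of Psmd2 began 26 bases before the start, between GC boxes at 52 before and 17 after it, and in Psmd13 it began 6 bases before the start. The Psmb9 promoter held an E2F-type element, a GC box and a CCAAT box and no ETS-type element. The ETS-type letters were added to the search after the Psmd2 and Psmd13 sequences had been read. Over the 38 members with a promoter in the table they were found in 11 of 16 cap genes, 0 of 12 core genes, 0 of 5 immunoproteasome genes and 1 of 5 genes with another role, against 9.12% of all 27025 promoters. The cap genes with it were Psmc1, Psmc2, Psmc6, Psmd2, Psmd4, Psmd6, Psmd11, Psmd12, Psmd13, Psme3 and Psme4. GGGCGG was in 22 of 38 (35.9% of all promoters) and CCAAT in 15 of 38 (37.9%). TGACNNNGC, the core of the antioxidant response element through which subunit genes can be raised together, was in 6 of 38 (12.5%), TTTNNCGC in 4 (5.27%), and the interferon-stimulated response element in 4 (3.49%), of which Psme1 was the 1 immunoproteasome gene. The motifs may overlap each other, and a match is only a match of letters.

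Below the threshold, the average palbociclib effect was positive in 38 of 44 members (48.3% of all genes were positive), with a median log2 fold change of 0.19 against -0.02 over all genes. An unadjusted p under 0.05 was reached upward by 15 members and downward by 0, against 6.89% of all genes upward. By role, 18 of 19 cap genes were positive with a median of 0.21, 9 of them at an unadjusted p under 0.05. Core subunits were positive in 11 of 15 with a median of 0.15, and 6 reached that p. The 5 immunoproteasome genes had small positive values, 0.04 to 0.11 (4 of 5 positive on log2 TPM), and none reached that p. After the called genes the smallest p belonged to the alpha subunits Psma6 (0.35 ± 0.11, adjusted p = 0.182) and Psma2 (0.27 ± 0.09, adjusted p = 0.211), which form part of the gate ring.

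Replication genes, chosen as a list of cell cycle activity, were positive in 9 of 10 in the same comparison with a median log2 fold change of 0.45, and Pcna, the replication clamp, was called (0.53 ± 0.10, edgeR adjusted p = 0.0390). The part that a shift in cell cycle had in the subunit levels was not tested. Neutrophil and granule markers made up 1.21% to 6.26% of the counts in vehicle, 1.21% to 9.09% in palbociclib, 0.795% to 5.71% in rapamycin and 1.00% to 6.06% in combination libraries. In the average palbociclib effect they were positive in 9 of 12 (median 0.45). Erythroid markers were negative in 8 of 8 (median -1.46) and HSC markers in 7 of 8 (median -0.28), against 51.7% of all genes. At an unadjusted p under 0.05 were 4 erythroid markers, against 6.93% of all genes lower. In each list edgeR called 0 (0.274% of all genes). Erythroid sums ranged from 0.0274% to 0.159% of the counts in vehicle, 0.00979% to 0.111% in palbociclib, 0.0590% to 0.186% in rapamycin and 0.0109% to 0.0416% in combination libraries, and the part of erythroid RNA in the subunit levels was not tested. With neutrophil and B cell marker shares as covariates in the edgeR fit, Psmd2 was at 0.52 (adjusted p = 0.0224) and Psmd13 at 0.44 (adjusted p = 0.0329). Erythroid, HSC and monocyte markers were not in that fit, and the part of blood cell RNA in these 2 calls was not tested.

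**Figure D4:**
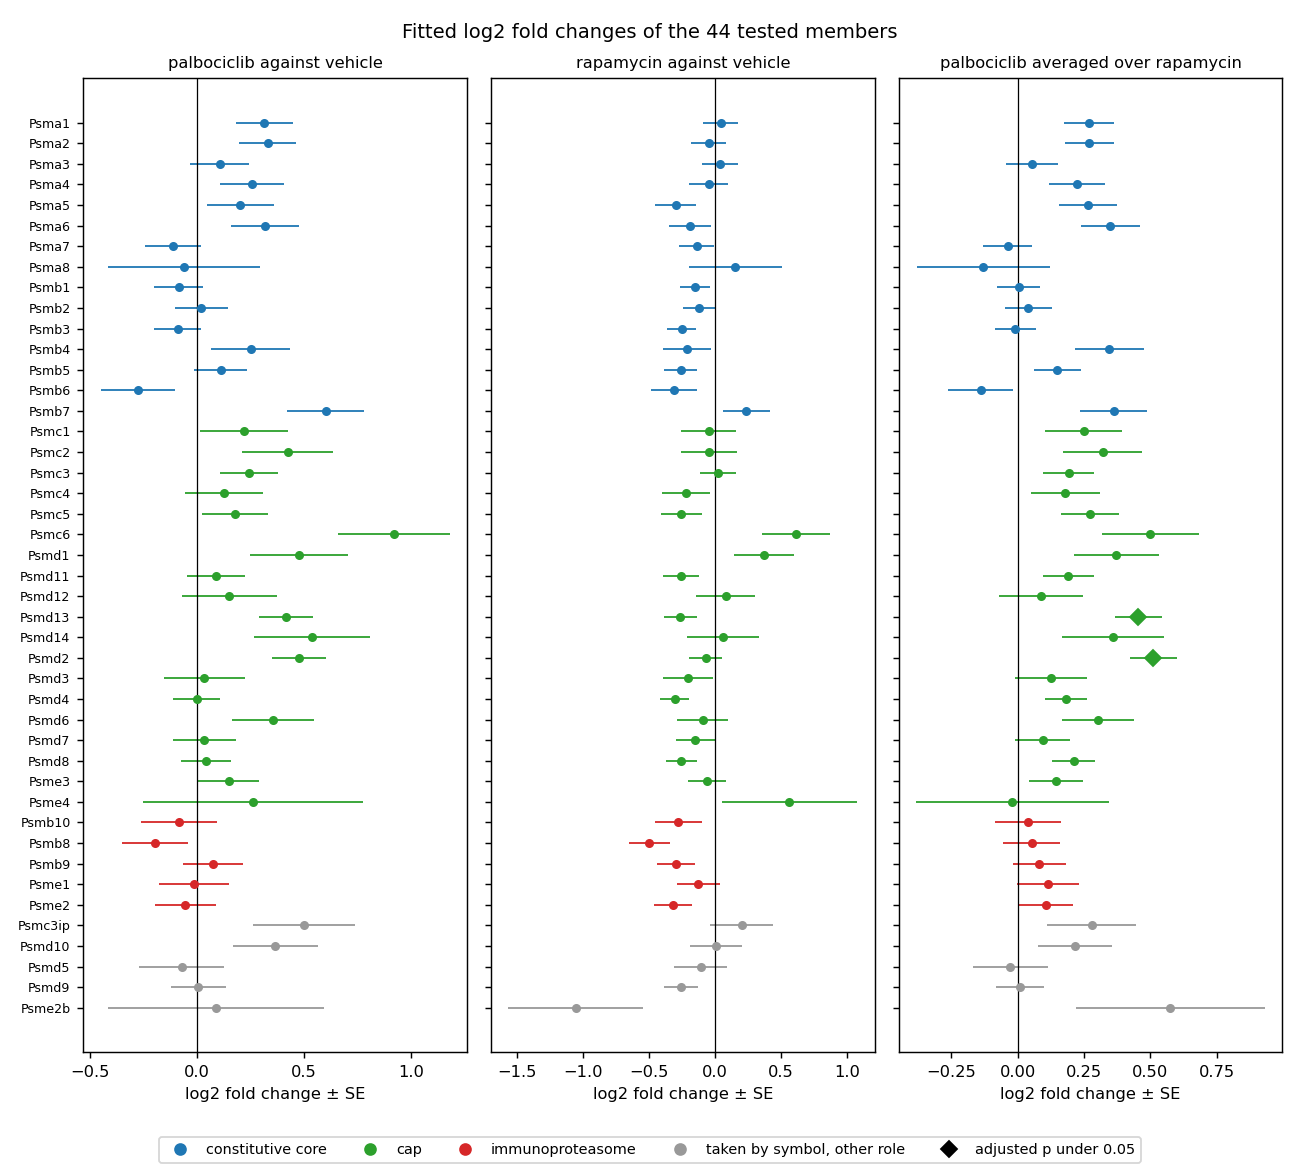
Fitted log2 fold change ± SE (bars) of the 44 tested members in 3 comparisons, coloured by role, with diamonds where the adjusted p is under 0.05. With palbociclib most cap points lie right of 0, with rapamycin most points lie left of 0, and the diamonds are Psmd2 and Psmd13 alone.

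Palbociclib alone against vehicle gave positive fold changes in 33 of 44 members (47.8% of all genes), with a median of 0.14 against -0.03 over all genes. The cap was positive in 18 of 19 genes (median 0.22, and 0.39 without vehicle 3, rapamycin 3 and vehicle 4). The core was positive in 10 of 15 (median 0.11). No member passed edgeR's test, as no gene did (0.0%), and 6 had an unadjusted p under 0.05, all higher (4.36% of all genes, with 5.15% lower): Psmd2, Psmc6, Psmb7, Psmd13, Psma2 and Psma1. DESeq2 called 1 member, Psmd2 (0.735% of all genes), and limma on log2 TPM called 0. In 5 members (Psmd2, Psmb7, Psmd13, Psma2 and Psmc3) the palbociclib range began above the vehicle range, and in 0 it ended below it, against 2.83% and 2.21% of all genes.

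Psmc6, the least abundant ATPase of the cap base, had 30.4, 38.7, 42.6 and 23.5 CPM in vehicle and 67.4, 39.3, 74.9 and 74.2 in palbociclib libraries. Palbociclib 2 lay within the vehicle range and the other 3 above it. Its log2 fold change was the largest among the members (0.92 ± 0.26) and did not pass (edgeR adjusted p = 0.304). Rapamycin libraries had 55.0, 57.3, 44.5 and 50.6 CPM, all above vehicle (0.62 ± 0.26, adjusted p = 0.604), and combination libraries 49.3, 34.2, 67.8 and 68.1.

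Psmb7, the trypsin-like catalytic subunit that Psmb10 replaces, had 83.2, 80.7, 53.8 and 93.3 CPM in vehicle and 110, 125, 139 and 96.9 with palbociclib, without overlap (0.60 ± 0.18, edgeR adjusted p = 0.329). Vehicle 3 was the lowest of all 16 libraries for this gene, against its place at the top in most others. Rapamycin libraries had 97.1, 92.1, 70.8 and 107 CPM and combination libraries 99.6, 98.0, 106 and 96.3. Psmb7 overlaps Nek6, a kinase gene on the opposite strand at 21.8 TPM. Of the other catalytic subunits, Psmb5 averaged 318 ± 29.1 CPM in vehicle and 343 ± 39.8 in palbociclib libraries, and Psmb6 513 ± 129 and 423 ± 48.0 (SD, n = 4), where vehicle 3 had 704 for Psmb6.

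Psma2 (0.33 ± 0.13, adjusted p = 0.448) and Psma1 (0.31 ± 0.13, adjusted p = 0.479) were the alpha subunits with the smallest p in this comparison. Psma2 had 243 to 325 CPM in vehicle and 327 to 401 in palbociclib libraries, just apart. Psma1 had 240 to 327 and 306 to 411, with overlap. Psmc3, an ATPase of the base, had 286 to 300 and 327 to 362 (0.24 ± 0.14, adjusted p = 0.616).

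With rapamycin alone the fold changes leaned the other way: 32 of 44 members were negative and 12 positive (51.0% and 49.0% of all genes), with a median of -0.13 against -0.01 over all genes. On log2 TPM with limma the split was 23 negative and 21 positive, with a median of -0.01 against 0.08 over all genes. The split by sign thus depended on the scale. Relative to the median over all genes, the members' median was lower on both scales, by -0.12 on counts and -0.10 on TPM. Core subunits had a median of -0.13 on counts and -0.01 on TPM, and the cap -0.07 on counts and 0.05 on TPM, turning sign there and, at 0.01, without vehicle 3. No member was called by edgeR (0.00653% of all genes were), by DESeq2 (0.565%) or by limma. At an unadjusted p under 0.05 were 5 lower (Psmb8, Psmd4, Psmb3, Psme2 and Psmd8, against 4.34% of all genes) and 1 higher (Psmc6, against 3.31%).

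In 7 members the rapamycin libraries lay below all vehicle libraries (1.5% of all genes), namely Psmb8, Psmd4, Psmb3, Psmd8, Psmd13, Psmb5 and Psmd9, and in 2 above them (1.57%), Psmc6 and Psmd1. Psmd4 (Rpn10, a ubiquitin receptor of the cap) had 244, 263, 270 and 259 CPM in vehicle and 216, 209, 208 and 206 in rapamycin libraries (-0.30 ± 0.11, edgeR adjusted p = 0.539). Psmd8 (Rpn12, of the lid) had 279, 337, 275 and 302 against 253, 252, 223 and 273 (-0.25 ± 0.12, adjusted p = 0.637). Both pairs of groups are separated by small gaps. Psmb3, a beta subunit without catalytic activity, had 329 to 381 CPM in vehicle and 277 to 304 in rapamycin (-0.25 ± 0.11, adjusted p = 0.618), and Psmb5, the chymotrypsin-like subunit, 290 to 353 and 249 to 276 (-0.26 ± 0.13, adjusted p = 0.670).

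Psmd1 (Rpn2, the large scaffold beside Psmd2) had 76.6, 138, 149 and 147 CPM in vehicle and 154, 167, 180 and 161 in rapamycin libraries, with vehicle 1 far below its group (0.37 ± 0.23, adjusted p = 0.790). With both drugs it had 173, 142, 238 and 244 (0.64 ± 0.23 against vehicle, adjusted p = 0.332).

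Both drugs against vehicle gave positive fold changes in 31 of 44 members (48.4% of all genes), with a median of 0.08 against -0.02 over all genes. All 19 cap genes were positive (16 with RLE factors, 17 by DESeq2), with a median of 0.16 that became 0.33 without vehicle 3, rapamycin 3 and vehicle 4. Core subunits had a median of 0.03 (8 of 15 positive, and 11 of 15 on log2 TPM with a median of 0.10), which turned slightly negative with the marker shares as covariates (-0.01) and without vehicle 1, vehicle 4, combination 3 or combination 4 (-0.02, -0.04, -0.003 and -0.03). edgeR called 0 members (0.0% of all genes), with 3 at an unadjusted p under 0.05, all higher (Psmd2, Psmd1 and Psmc6, against 4.99% of all genes, and 5.53% lower). DESeq2 called Psmd2 alone (1.21% of all genes) and limma 0 members. The groups did not overlap upward in 5 members (Psmd2, Psmb7, Psma1, Psmd13 and Psmc3, against 3.38%) and downward in 2 (Psmd9 and Psmb3, against 2.18%). The 3 comparisons with vehicle share the same 4 vehicle libraries, so their values over members are not independent of each other.

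Adding palbociclib to rapamycin, that is combination against rapamycin, gave positive values in 41 of 44 members (48.1% of all genes), with a median of 0.19 against -0.02, and in 34 of 44 on log2 TPM with a median of 0.13. Here 11 members did not overlap, all higher (4.98% of all genes, with 3.87% lower): Psmd2, Psmd13, Psmd4, Psmd8, Psma6, Psmb4, Psmc5, Psmb8, Psma1, Psmb5 and Psma4. edgeR called 0 members (0.0327% of all genes, 0.0261% higher) and 8 had an unadjusted p under 0.05, all higher (5.44%, with 4.35% lower), while DESeq2 called 4 (1.10% of all genes), Psmd2, Psmd13, Psmd4 and Psmd8, and limma 0. The smallest p were those of Psmd2 (0.55 ± 0.13, adjusted p = 0.163), Psmd13 (0.49 ± 0.13, adjusted p = 0.220), Psmd4 (0.37 ± 0.11, adjusted p = 0.291) and Psmd8 (0.38 ± 0.12, adjusted p = 0.292). Psmd4 and Psmd8, close to vehicle in palbociclib libraries (233 to 276 and 288 to 315 CPM), had 243 to 300 and 307 to 342 CPM with both drugs.

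Adding rapamycin to palbociclib gave negative values in 32 of 44 members and positive values in 12 (51.0% and 49.0% of all genes), with a median of -0.06 and no gene of 15308 called (0.0%). No member had an unadjusted p under 0.05 in either direction (1.67% of all genes higher and 1.18% lower), and DESeq2 (0.138% of all genes) and limma called 0 members. The libraries did not overlap downward in 2 members (1.61% of all genes), Psmb9 and Psmd9, and upward in 0 (2.23%). Averaged over palbociclib, rapamycin gave negative values in 37 of 44 members (50.9% of all genes), with a median of -0.11 against -0.01 over all genes. On log2 TPM it did so in 26 of 44, with a median of -0.03 against 0.06 over all genes. The cap median was -0.09 on counts and 0.01 on log2 TPM. No member was called by edgeR (0.0% of all genes), DESeq2 (0.276%) or limma. The 6 at an unadjusted p under 0.05, all lower (2.67% of all genes), were Psmb9, Psmd9, Psmd13, Psmb5, Psmb8 and Psmb3.

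The test of the interaction, whether palbociclib acted differently with and without rapamycin, gave positive values in 27 of 44 members (50.7% of all genes). On log2 TPM it did so in 17 of 44, with a median of -0.04 against -0.05 over all genes. edgeR called 0 members and no gene (0.0%), and DESeq2 (0.256% of all genes) and limma called 0 members. At an unadjusted p under 0.05 were Psmd4 (0.37 ± 0.16, edgeR adjusted p = 0.844) and Psmb8 (0.50 ± 0.22, adjusted p = 0.856) upward (3.29% of all genes) and Psmc6 (-0.84 ± 0.36, adjusted p = 0.856) downward (2.38%).

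For all 5 immunoproteasome genes the mean was lowest in the rapamycin group, though no difference passed the test. Of the 5 genes, all were negative in rapamycin against vehicle (median -0.29, and -0.16 on log2 TPM, where Psme1 turned to 0.01), 4 were negative with palbociclib (median -0.06, but 0.02 with 3 of 5 positive on log2 TPM or with the marker shares as covariates) and 4 with both drugs (median -0.12). None passed edgeR's test in any comparison. Psmb8, the inducible counterpart of Psmb5, had 519, 576, 702 and 648 CPM in vehicle and 493, 350, 493 and 399 in rapamycin libraries, without overlap (-0.49 ± 0.15, edgeR adjusted p = 0.497). Palbociclib libraries had 433, 580, 564 and 554, and combination libraries 530, 595, 517 and 498. The rapamycin libraries were thus the lowest group, and the combination libraries all lay above them.

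Psmb9, the counterpart of Psmb6, had 192, 219, 175 and 215 CPM in vehicle, 189, 259, 205 and 190 in palbociclib, 183, 131, 168 and 172 in rapamycin and 169, 176, 181 and 169 in combination libraries. Averaged over palbociclib, rapamycin gave -0.29 ± 0.10 (edgeR adjusted p = 0.854), the smallest p of any member in that comparison. The combination libraries lay below all palbociclib libraries and overlapped vehicle at its lowest, vehicle 3. Psmb9 overlaps Tap1, the gene of a peptide transporter, on the opposite strand by 212 bases (92.5 TPM).

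Psmb10, the counterpart of Psmb7, had 162, 138, 134 and 170 CPM in vehicle, 118, 176, 137 and 139 in palbociclib, 140, 92.2, 143 and 123 in rapamycin and 132, 179, 123 and 123 in combination libraries, with overlap in every comparison. Psme2, an activator subunit, had 267, 226, 288 and 289 in vehicle and 236, 175, 253 and 197 in rapamycin libraries (-0.31 ± 0.14, adjusted p = 0.629), with 221 to 279 and 234 to 281 in the other groups. Its partner Psme1 had 312 to 489 CPM in vehicle and 338 to 489, 323 to 408 and 388 to 528 in palbociclib, rapamycin and combination libraries, a near complete overlap. Rapamycin 2 was the lowest of the 16 libraries for Psmb8, Psmb9, Psmb10 and Psme2.

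Markers of mature blood cells, many of which carry much immunoproteasome, were set beside these values. The 11 B cell markers summed to 0.165% to 3.20% of counts in vehicle, 0.0352% to 1.06% in palbociclib, 0.0104% to 0.155% in rapamycin and 0.00568% to 0.732% in combination libraries, with no marker at 0 in all libraries. Vehicle 4 alone had 3.20%, and the other vehicle libraries 0.165% to 0.868%. The markers' median log2 fold changes against vehicle were -1.63, -2.95 and -3.98 in palbociclib, rapamycin and combination, and 0 of the 10 tested markers were called by edgeR. With rapamycin 7 were lower at an unadjusted p under 0.05, against 4.34% of all genes. The highest rapamycin library, at 0.155%, was below the lowest vehicle library, at 0.165%. T and NK cell markers had a negative rapamycin fold change in 9 of 9 (median -1.73), with sums of 0.0141% to 0.0666% in vehicle and 0.0147% to 0.0409% in rapamycin libraries. Monocyte, macrophage and dendritic cell markers were negative in 5 of 10, with 3 lower at that p (4.34% of all genes), and summed to 0.411% to 2.42% and 0.347% to 1.03%. Single genes weigh on these sums. Nkg7, of the T and NK list, had 90.7 to 604 CPM in vehicle and 125 to 381 in rapamycin libraries. Of the monocyte list, Lyz2 had 2051 to 7313 and 2055 to 8692 CPM, and Cd74 374 to 15570 and 374 to 823. None of the markers in these lists was called. With neutrophil and B cell marker shares as covariates, the immunoproteasome median with rapamycin against vehicle was -0.27, against -0.29 without them, and all 5 genes stayed negative. T, NK and monocyte markers were not in that fit, and the part of such RNA in the immunoproteasome levels was not tested.

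The exchange of catalytic subunits was read as the log2 ratio of TPM between each inducible subunit and the one it replaces. Per gene length, Psmb10 exceeded Psmb7 in every library, with ratios of 1.3 to 1.92 in vehicle, 0.56 to 1.11 in palbociclib, 0.64 to 1.65 in rapamycin and 0.83 to 1.44 in combination. The palbociclib libraries lay wholly below vehicle, by 0.70 between the means (0.86 ± 0.28 against 1.57 ± 0.26, SD, n = 4). The rapamycin and combination means were also below that of vehicle, at 1.06 and 1.04, with ranges that overlapped vehicle. Psmb8 exceeded Psmb5 in every library but rapamycin 2, by a smaller mean ratio (0.37 over the 16 libraries). Its ratios were 0.26 to 0.68 in vehicle, 0.07 to 0.43 in palbociclib, -0.02 to 0.43 in rapamycin and 0.18 to 0.68 in combination, with overlap throughout. Psmb9 was below Psmb6 in every library, at -2.29 to -1.34 in vehicle and -1.38 to -1.24 in palbociclib, where the lowest vehicle value was that of vehicle 3. In rapamycin and combination libraries it lay at -1.78 to -1.49 and -1.72 to -1.38.

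**Figure D5:**
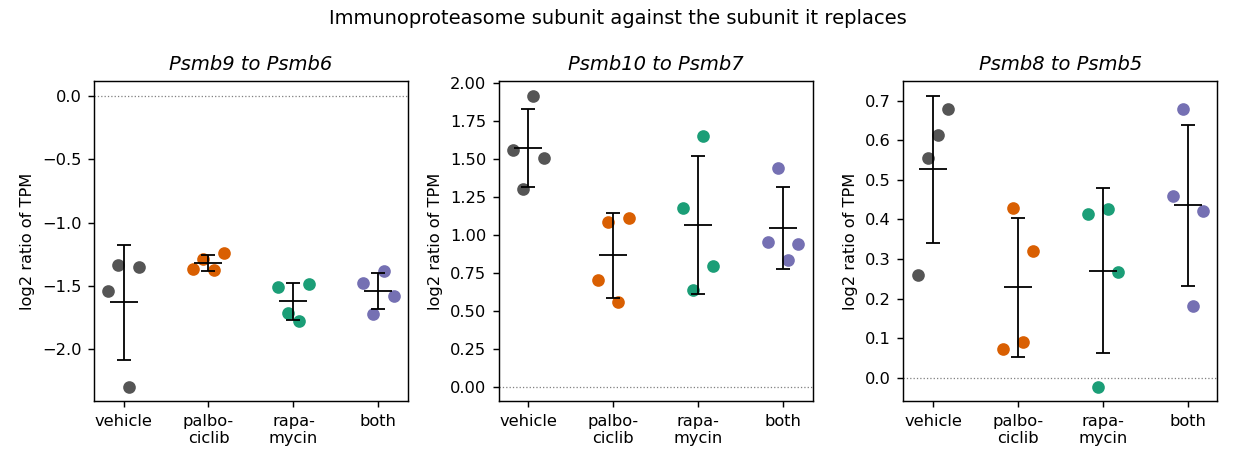
Log2 ratio of TPM of each inducible catalytic subunit to the subunit it replaces, with 1 point per library, bars for the mean and SD of 4 libraries and a dotted line at equal levels. Psmb10 to Psmb7 lies above 0 in all 16 libraries, with a lower mean in every drug group than in vehicle and no overlap for palbociclib. Psmb9 to Psmb6 lies below 0 in all 16.

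Genes that interferon induces together with the immunoproteasome in many cells were set beside it. Of 18 antiviral genes, 17 were positive with both drugs against vehicle (48.4% of all genes) with a median of 1.44, where the immunoproteasome median was -0.12. At an unadjusted p under 0.05 were 14 (4.99% of all genes higher and 5.53% lower), and edgeR called 0 (0.0% of all genes). Rsad2, the antiviral enzyme viperin, averaged 18.3 CPM in vehicle and 72.4 in combination libraries (1.98 ± 0.39, edgeR adjusted p = 0.218). In the average palbociclib effect Irf7, an amplifier of interferon signalling, rose by 1.55 ± 0.27 on the log2 scale (adjusted p = 0.0288), and Bst2, which tethers enveloped viruses, by 0.55 ± 0.10 (adjusted p = 0.0391), while Psmb8 gave 0.05 ± 0.11 (adjusted p = 0.886). Irf8, a factor of B and myeloid cells, averaged 71.9 CPM in vehicle and 26.3 in rapamycin libraries (-1.45 ± 0.55, adjusted p = 0.553).

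The MHC class I presentation genes, downstream of the immunoproteasome, were positive in 4 of 10 with palbociclib, 3 of 10 with rapamycin and 7 of 10 with both drugs (medians -0.03, -0.14 and 0.11), with 0 called. Pdia3, a chaperone of class I loading, averaged 564 CPM in vehicle and 1009 with both drugs (0.84 ± 0.23, edgeR adjusted p = 0.259), and B2m, the light chain, averaged 2212 CPM in vehicle and 2978 with both drugs (0.43 ± 0.18, adjusted p = 0.405).

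Genes that build or serve the proteasome had list medians between -0.21 and 0.05 in the comparisons with vehicle, with 0 called by edgeR. Of 5 assembly factors, 1 was positive in each comparison with vehicle (medians -0.10, -0.18 and -0.21 for palbociclib, rapamycin and both). Pomp, which matures the core, averaged 240.0 CPM in vehicle and 188 in rapamycin libraries (-0.35 ± 0.13, adjusted p = 0.546), and Psmg4, a chaperone of the alpha ring, 37.1 in vehicle and 26.1 with both drugs (-0.51 ± 0.20, adjusted p = 0.369). Of 14 associated proteins, 5 were positive with palbociclib, 8 with rapamycin and 5 with both drugs (medians -0.04, 0.05 and -0.13). The smallest p was that of Adrm1 (Rpn13, a ubiquitin receptor of the cap) with rapamycin, at 176 CPM in vehicle and 129 in rapamycin libraries (-0.45 ± 0.17, adjusted p = 0.556).

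The 8 genes that control subunit transcription had medians of 0.04, -0.08 and 0.05. Nfya, a subunit of the factor that binds CCAAT boxes, had 20.6 CPM in vehicle and 11.7 in rapamycin libraries (-0.82 ± 0.23, adjusted p = 0.420). Of 6 genes of ubiquitin supply, 1, 3 and 2 were positive with palbociclib, rapamycin and both (medians -0.17, -0.03 and -0.11), with Ubb, a polyubiquitin gene, at 5538 CPM in vehicle and 4063 with palbociclib (-0.45 ± 0.26, adjusted p = 0.628). None of these genes was called in the comparisons with vehicle.

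The 5 genes with another role were described apart. Psmd9 and Psmd10 are chaperones of base assembly and Psmd5 a chaperone that leaves the mature cap, Psmc3ip serves meiotic recombination, and Psme2b is a close copy of Psme2 whose reads may be split with it. Psmd9 had 69.1, 72.0, 59.8 and 61.8 CPM in vehicle, 69.0, 68.5, 62.8 and 63.2 in palbociclib, 58.7, 56.6, 48.9 and 56.2 in rapamycin and 54.2, 53.5, 57.8 and 56.7 in combination libraries. All 8 libraries with rapamycin lay below all 8 without it, against 0.0131% of all genes, by a small gap (58.7 against 59.8), and the average rapamycin effect was -0.25 ± 0.09 (edgeR adjusted p = 0.951). Psmd10 (0.37 ± 0.20 with palbociclib, adjusted p = 0.597), Psmc3ip (0.50 ± 0.24, adjusted p = 0.531) and Psmd5 (-0.07 ± 0.20, adjusted p = 0.939) did not pass. Psme2b ranged from 0.957 to 10.1 CPM over the 16 libraries.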

How the data were processed

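The 16 libraries were made from HSC total RNA with a low-input kit. The submitters' processing notes list STAR 2.5.3a, RSEM 1.3.0, SAMtools 1.3 and mm10; the role of each and the annotation release were not given in the sources used here. Of 2 tables used, the authors deposited expected counts (estimated counts per gene, as RSEM gives, all whole numbers) and log2(TPM + 1) values of the same 50686 genes. RSEM shares reads between near-identical genes. Symbols and coordinates came from GENCODE M21 (GRCm38), and promoters from RefSeq.

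The deposited counts were fitted with edgeR 4.0.16 (R 4.3.3), a mean per group over 16 libraries, leaving 12 residual degrees of freedom, TMM factors, and filterByExpr with a minimum count of 10, which kept 15308 genes. The quasi-likelihood test was adjusted by Benjamini-Hochberg over all genes at 0.05. CPM are TMM-scaled. limma 3.58.1 and DESeq2 1.42.0 were alternatives, and the settings tried were other factors and filters, neutrophil and B cell marker shares as covariates, a replicate block and left-out libraries. No 2 libraries of a group were alike within sampling noise (24 pairs, lowest chi-square per degree of freedom 24.1). Counts of 15308 genes were simulated with means, library sizes and dispersions from all 16 libraries, and changes were put into the palbociclib group for randomly drawn genes. The test of palbociclib against vehicle recovered 4% of 1.5-fold, 22% of 2-fold, 62% of 4-fold and 86% of 8-fold changes.

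The members, lists and tests were chosen with earlier results of these data known. Named were the immunoproteasome genes, Psmb5, Psmb6 and Psmb7, the 4 members of smallest p per comparison, members whose 4 libraries did not overlap those compared, any member past the threshold, the 3 highest and 3 lowest in TPM, and up to 3 genes of smallest p per wider list. Motif letters of the ETS type were added later, and 1 listed assembly factor, Paaf1, was not matched by symbol and not used here.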

Additional observations from a re-analysis of the deposited data

Results flagged for a closer look

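In 25 named members and 4 groups, 100 sets of 4 libraries were examined for a library far from the other 3, by Dixon's gap at its 95% critical value, which chance gives in about 1 of 20 sets. There were 6. Vehicle 3 stood high for Psma7 (583 CPM, others 432 to 449) and Psmb6 (704, others 427 to 464). Vehicle 1 stood low for Psmd1 (76.6, others 138 to 149), rapamycin 3 low for Psma1 (282, others 312 to 313), combination 2 high for Psmb10 (179, others 123 to 132) and palbociclib 1 high for Psme2b (10.1, others 5.47 to 5.83). For Psmb8 the palbociclib effect was -0.20 on the log2 scale without rapamycin and 0.30 with it; the interaction had an unadjusted p under 0.05 but an edgeR adjusted p of 0.856.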

How the results depend on the processing

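Of 48 fold changes of named members, all kept their direction under the alternatives run, except Psme1 in rapamycin against vehicle, -0.12 on counts and 0.0086 by limma on log2(TPM + 1) and on log2(TPM + 0.1). The number of members called in the average palbociclib effect, 2 by edgeR, was 0 without a filter on low counts (Psmd2 adjusted p = 0.0603, Psmd13 0.128), 0 without vehicle 3, rapamycin 3 and vehicle 4 (0.0741 and 0.104), 0 by limma on log2(TPM + 1) (0.111 and 0.102) and 0 on log2(TPM + 0.1), and from 0 to 2 with 1 library left out. Psmd2 kept its call in 12 of 25 alternatives and Psmd13 in 7. DESeq2 called 1 member in palbociclib against vehicle, 1 in combination against vehicle and 4 in combination against rapamycin, where edgeR called 0. The cause of these differences was not tested.

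Replicate numbers were not taken to pair the libraries. Deviations from the group means correlated at -0.21 to 0.35 (median 0.04) in the 24 same-numbered pairs. In 72 pairs of other numbers they correlated at -0.39 to 0.31 (median -0.02). Negative values can also occur among truly paired libraries, so these correlations cannot exclude a pairing. As a hint of one, 8 of 16 libraries correlated best with their own number, though the number that would do so by chance was not computed. With the replicate block, 1 member, Psmd2, was called in the average palbociclib effect (adjusted p = 0.0429, Psmd13 0.0690), and the block changed no other call.

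Median log2 fold changes moved by more than the spread in these cases. In rapamycin against vehicle the core went from -0.13 to -0.0090 on both TPM scales and the cap from -0.07 to 0.047 on log2(TPM + 1) and 0.048 on log2(TPM + 0.1). The median over all genes went there from -0.0093 to 0.085 on log2(TPM + 1). Without vehicle 3, rapamycin 3 and vehicle 4 the cap went from 0.22 to 0.39 with palbociclib, from 0.16 to 0.33 with both drugs and from 0.21 to 0.36 in the average. In the interaction the cap went from 0.06 to -0.060 on both TPM scales, and the median over all genes from 0.0083 to -0.050 on log2(TPM + 1). With 1 library left out the cap ranged from 0.15 to 0.37 with palbociclib and from -0.062 to 0.10 in the interaction, with 0.37 and -0.062 both without vehicle 3. Differences between groups in the exchange ratios moved by less than the spread on TPM + 1 and on CPM. The ratios' own means, 1.13, 0.37 and -1.53 for Psmb10, Psmb8 and Psmb9 on TPM, were 0.54, 0.77 and -1.23 on CPM, which are not per length. At 4 libraries a group, simulated 1.5-fold changes were recovered in 4% of genes for palbociclib against vehicle. Those genes were drawn at random from tested genes above a low level. Over all tested genes the median within-group SD of log2 CPM was 0.55, against 0.20 for the members. The rate for members was not simulated, so the 4% cannot be carried over to them, though changes of that size could still go undetected.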
